A study of Mus musculus with 20 samples.

Results

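The genes described here are the variable (V) segments of the T cell receptor alpha locus (Trav, chromosome 14) and beta locus (Trbv, chromosome 6) of the mouse. Gene identifiers of the deposited count table were matched to the GENCODE annotation of GRCm38, and every gene of the annotation class TR_V gene whose symbol begins with Trav or Trbv and that had at least 1 count was kept. This gave 93 of 130 annotated segments, 71 of 108 Trav and 22 of 22 Trbv. The table held 49671 genes, of which 24868 had a count. Each segment is given as its share, in percent, of all Trav or of all Trbv counts of a library.

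The RNA came from 20 libraries of mouse T cells in 4 groups of 5: CD8 T cells at week 1 and week 4 and CD4 T cells at week 1 and week 3. Cells from spleen and inguinal lymph nodes were enriched as CD4+ or CD8+, activated on plates coated with anti-CD3/CD28 in medium with IL-2 at 1 ng/mL, and then grown with IL-7 (10 ng/mL) plus IL-15 (50 ng/mL). Expansion lasted 4 days for week 1 in both lineages, 18 days for CD4 week 3 and 25 days for CD8 week 4, and all cells were sorted as CD44+CD62L+ before polyA RNA was isolated. The protocols name polyclonal cells of albino B6 mice and transgenic cells of Marilyn-BLITC and MataHari-BLITC mice, but no label says which library holds which, and age is not given in the sources used here. No label names animals or cultures, so p-values measure the spread between these libraries, which may be technical. The CD8 and CD4 libraries carry different ranges of title numbers, so title range and lineage cannot be told apart.

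An alpha beta T cell receptor is assembled in the thymus, where a V segment of each locus is joined to other gene segments of that locus. The choice is then inherited by all descendants of the cell. The V segment encodes the first and second loops that contact the presenting MHC molecule and the start of the third loop that reads the peptide. CD8 T cells recognise MHC class I and CD4 T cells MHC class II. Counts of V segments in RNA of a polyclonal population therefore record how often each segment is used, weighted by the receptor RNA each cell holds. The mouse alpha locus carries duplicated clusters whose copies bear the letter d or n in their symbols, and segments with dv in the symbol can also join the delta chain.

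The 4 beta segments with the smallest adjusted p-values between CD8 and CD4 cells at week 1 are printed first, as the coding part of the V exon without the leader exon, 5′ to 3′ on the coding strand, from the GENCODE M21 transcripts of GRCm38. Trbv12-1 lies at chr6:41113775-41114067 on the plus strand, Trbv12-2 at chr6:41119072-41119364 on the plus strand, Trbv31 at chr6:41557693-41557984 on the minus strand and Trbv2 at chr6:41047701-41047995 on the plus strand. Capitals mark the codon of the last cysteine that follows a phenylalanine, leucine or tyrosine codon, which in V segments lies at the start of the third loop.
Trbv12-1: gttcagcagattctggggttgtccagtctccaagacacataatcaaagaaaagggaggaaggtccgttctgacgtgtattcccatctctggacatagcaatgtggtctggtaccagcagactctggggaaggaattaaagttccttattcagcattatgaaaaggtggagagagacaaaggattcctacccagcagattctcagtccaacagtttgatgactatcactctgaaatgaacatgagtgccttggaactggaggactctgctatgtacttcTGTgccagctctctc
Trbv12-2: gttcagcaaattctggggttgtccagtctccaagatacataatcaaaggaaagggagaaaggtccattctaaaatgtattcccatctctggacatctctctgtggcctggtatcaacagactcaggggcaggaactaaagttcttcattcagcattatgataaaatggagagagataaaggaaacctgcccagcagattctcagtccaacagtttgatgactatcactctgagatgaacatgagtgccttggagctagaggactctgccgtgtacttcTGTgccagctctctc
Trbv31: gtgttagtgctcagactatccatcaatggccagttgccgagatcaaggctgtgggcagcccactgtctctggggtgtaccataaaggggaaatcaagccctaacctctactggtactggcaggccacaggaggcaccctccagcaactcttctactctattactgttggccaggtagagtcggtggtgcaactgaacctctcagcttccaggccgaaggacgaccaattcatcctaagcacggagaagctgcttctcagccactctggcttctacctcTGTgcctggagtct
Trbv2: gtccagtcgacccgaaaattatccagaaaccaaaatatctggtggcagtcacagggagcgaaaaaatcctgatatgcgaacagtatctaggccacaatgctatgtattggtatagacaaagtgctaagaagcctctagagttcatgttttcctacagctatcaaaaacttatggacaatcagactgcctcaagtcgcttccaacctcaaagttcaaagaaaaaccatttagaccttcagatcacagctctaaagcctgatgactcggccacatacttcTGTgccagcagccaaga

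Trbv12-1 and Trbv12-2 differed at 32 of 293 bases, an identity of 89.08%. The last 60 coding bases of 8 other beta segments with a lineage difference at both stages are shown for comparison of their 3′ ends, again with the cysteine codon in capitals. Of the 93 segments with counts, 90 had such a codon within the last 30 coding bases.
Trbv29: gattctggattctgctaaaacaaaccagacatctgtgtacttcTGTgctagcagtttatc
Trbv14: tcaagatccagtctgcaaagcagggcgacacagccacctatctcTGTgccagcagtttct
Trbv17: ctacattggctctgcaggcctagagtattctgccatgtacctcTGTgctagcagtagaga
Trbv20: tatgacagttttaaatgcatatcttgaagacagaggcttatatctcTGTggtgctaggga
Trbv26: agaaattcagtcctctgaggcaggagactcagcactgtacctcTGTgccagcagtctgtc
Trbv1: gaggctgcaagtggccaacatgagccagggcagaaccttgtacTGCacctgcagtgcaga
Trbv19: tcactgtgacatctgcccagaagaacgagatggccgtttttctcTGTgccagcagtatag
Trbv13-2: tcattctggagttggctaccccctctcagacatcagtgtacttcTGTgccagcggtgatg

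Total counts per library ranged from 13264302 to 28342449. Trav segments received 1171 to 2927 counts per library and Trbv segments 4100 to 9036, so a segment at 0 in the smallest library could hold up to 0.256% of Trav or 0.0732% of Trbv counts, for counting error only. The 95% Wilson interval of a share shows the precision of a single library: 342 of 6353 Trbv counts for Trbv12-1 in CD8 week 1 replicate 1 gave 4.85% to 5.97%, and 16 of 1232 Trav counts for Trav4-4-dv10 in the same library gave 0.801% to 2.10%. These intervals cover counting error only. On the first principal component of the 1000 most variable genes (64.0% of the variance), the scores of CD8 week 4 replicates 1 and 2 were 60.8 and 64.2, those of replicates 3 to 5 24.4 to 29.5. The score of CD8 week 1 replicate 3 was 34.0 and those of replicates 1, 2, 4 and 5 were 53.2 to 62.1. The CD4 replicates 2 also stood apart, at -18.4 (week 1) and -24.3 (week 3). The counts of Cd4, Cd8a and Cd8b1, the coreceptors, separated the lineages as labelled: Cd4 averaged 0.273, 0, 737 and 618 CPM (counts scaled to a common library size) in CD8 week 1, CD8 week 4, CD4 week 1 and CD4 week 3, and Cd8a 959, 1051, 0.716 and 4.74 CPM.

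Segments at 0 were mostly copies that share their sequence with another segment. Of the 37 Trav segments at 0, 35 were d or n copies, and 32 had no window of 50 bases that was absent from the transcripts of every other segment; among the 71 counted Trav segments 3 lacked such a window and the median share of unique windows was 54.6%. All 22 Trbv segments had unique windows, with a median of 100%. The header of the count table sets no option for reads that match several places, and such reads are then not counted. The values of near-identical Trav copies are therefore uncertain, and a segment at 0 is not shown to be unused. Some segments at 0 did have unique windows: Trav15d-1-dv6d-1 had 12.7% and Trav7n-6 56.6%. The copy of the latter, Trav7-6, had 56.9% and received 496 counts. Stretches of 60 bases from 2 trios of copies show the range, with the positions at which the copies differ in capitals. The Trav14-3 copies differed at 12 of 309 bases and received 730, 946 and 1244 counts over all libraries, whereas Trav9-2 differed from 2 copies identical to each other at 5 of 294 bases and received 1770 counts against 0 and 0.
Trav14-3: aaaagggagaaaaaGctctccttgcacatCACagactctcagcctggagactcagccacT
Trav14d-3-dv8: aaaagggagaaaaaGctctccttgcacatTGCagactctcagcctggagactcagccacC
Trav14n-3: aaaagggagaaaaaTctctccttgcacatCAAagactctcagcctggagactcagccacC
Trav9-2: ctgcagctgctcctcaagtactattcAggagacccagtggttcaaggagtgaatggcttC
Trav9d-2: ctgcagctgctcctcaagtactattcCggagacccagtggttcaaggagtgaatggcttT
Trav9n-2: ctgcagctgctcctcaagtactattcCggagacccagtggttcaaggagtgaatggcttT

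These stretches lie on the plus strand at chr14:53763616-53763675 (Trav14-3), chr14:53078967-53079026 (Trav14d-3-dv8), chr14:53370497-53370556 (Trav14n-3), chr14:53591361-53591420 (Trav9-2), chr14:52892465-52892524 (Trav9d-2) and chr14:53203401-53203460 (Trav9n-2). Of 27 pairs of a d and an n copy, 16 had identical V exons, and in 15 of these both copies were at 0. None of the 11 pairs with differing exons had both copies at 0.

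Use of the beta segments was uneven but no segment dominated a library. Per exon length, Trbv13-2 stood highest in all 4 groups, with 13.4% ± 1.05, 13.2% ± 1.22, 16.4% ± 0.97 and 16.1% ± 1.13 of the length-corrected Trbv counts (mean ± SD, n = 5; CD8 week 1, CD8 week 4, CD4 week 1, CD4 week 3). The next in CD8 week 1 were Trbv29 (8.84% ± 1.78), Trbv16 (8.28% ± 0.85) and Trbv12-2 (8.09% ± 0.67), whose values lay within their spread of one another. In CD4 week 1 the next were Trbv1 (9.75% ± 0.92), Trbv31 (8.40% ± 0.78) and Trbv3 (7.36% ± 0.48). The 17 Trbv segments with a mean share of at least 1% held 98.8% to 99.4% of Trbv counts in each library. Trbv13-1 and Trbv19, the beta segments of the MataHari and Marilyn receptors, had the largest uncorrected share in 0 and 1 of the 20 libraries, and Trbv19 in that library, CD4 week 3 replicate 4, held 12.3% (95% Wilson interval 11.4% to 13.3%).

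The first question of the design, as the labels set it, is how CD8 and CD4 cells differ at week 1 and at the long-term stage. The long-term stage is week 4 (25 days of expansion) for CD8 and week 3 (18 days) for CD4. Lineage and culture time therefore cannot be told apart there, nor where changes over culture are compared between the lineages. Segment use differed widely between CD8 and CD4 cells, most of all at the beta locus. In edgeR's quasi-likelihood test, fitted to all 13290 genes that passed its filter with the locus total as offset for the segments and Benjamini-Hochberg adjustment over all genes, 20 of the 74 tested segments had a higher share in CD8 than in CD4 cells at week 1 and 19 a lower one. At the long-term stage 21 were higher and 21 lower. Over all genes tested, 19.1% were higher and 19% lower in CD8 at week 1, and 17.7% higher and 15% lower at the long-term stage. By locus, 24 of 55 Trav segments (43.6%) and 15 of 19 Trbv segments (78.9%) passed at week 1, and 26 (47.3%) and 16 (84.2%) at the long-term stage. Shares of a locus sum to 100, so some must be lower where others are higher. With the CD8 libraries of title range A (replicates 1 to 3) alone, 35 and 41 segments were called at week 1 and long term, and with those of range B (replicates 4 and 5) 31 and 25. The 19 segments that were not tested (16 Trav with at most 141 counts in all libraries together, and Trbv4, Trbv5 and Trbv21 with at most 110) held mean shares of at most 0.388% of Trav and 0.0879% of Trbv counts; Trbv4 and Trbv5 also overlap exons of another gene.

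The lineage difference was larger at the beta locus in size as well. The median absolute difference was 0.96 on the log2 scale for 19 Trbv segments at week 1 and 0.87 at the long-term stage, against 0.53 and 0.57 for 55 Trav segments, with median standard errors (SE) of 0.11 for Trbv and 0.25 for Trav.

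Trbv12-1 showed the highest ratio of CD8 to CD4 cells. Its share was 5.38%, 5.99%, 6.02%, 5.69% and 6.05% in the 5 CD8 week 1 libraries and 5.92%, 5.64%, 5.71%, 6.06% and 5.80% at week 4. In CD4 cells it was 0.781%, 0.923%, 0.622%, 0.802% and 0.929% at week 1 and 1.10%, 0.881%, 0.596%, 0.644% and 0.747% at week 3. The groups of the 2 lineages did not overlap at either stage. The share was 7.16-fold higher in CD8 cells at week 1 (log2 2.84, SE 0.14, adjusted p = 1.3e-10, edgeR) and 7.31-fold higher at the long-term stage (log2 2.87, SE 0.15, adjusted p = 9.5e-11, edgeR).

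Trbv12-2, of the same family and also printed above, was higher in CD8 cells too. Its shares were 8.64%, 8.51%, 8.12%, 7.60% and 7.07% at CD8 week 1 and 9.55%, 8.94%, 6.61%, 6.64% and 6.99% at CD8 week 4. The CD4 values were 2.18%, 1.98%, 1.92%, 1.6% and 1.96% at week 1 and 2.06%, 1.76%, 1.63%, 1.67% and 1.68% at week 3. The ratio was 4.14 at week 1 and 4.39 at the long-term stage, and no CD8 library came as low as a CD4 library. CD8 week 4 replicates 1 and 2, which lay apart from the other week 4 libraries on the first principal component, had the 2 highest values. Among the CD8 week 1 libraries, replicates 1 and 2 had the 2 highest values as well. The 2 segments together held 13.8% ± 0.589 and 13.6% ± 1.38 of Trbv counts in CD8 cells and 2.74% ± 0.252 and 2.55% ± 0.370 in CD4 cells (week 1 and long term, n = 5).

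Trbv31, the only counted Trbv segment on the minus strand, showed the opposite pattern. Its shares in CD8 cells were 1.54%, 1.58%, 1.72%, 1.77% and 1.71% at week 1 and 1.45%, 1.44%, 1.63%, 1.68% and 1.62% at week 4. In CD4 cells they were 8.66%, 7.60%, 9.82%, 8.49% and 8.84% at week 1 and 8.52%, 7.77%, 7.44%, 8.05% and 7.67% at week 3. The groups were far apart, with a 5.21-fold lower share in CD8 cells at week 1 (log2 -2.38, SE 0.09, adjusted p = 1.9e-12, edgeR) and a 5.04-fold lower share at the long-term stage (log2 -2.33, SE 0.09, adjusted p = 1.4e-12, edgeR). Trbv2 was lower as well, at 3.35% to 3.78% in CD8 week 1 against 8.36% to 9.80% in CD4 week 1, and at 3.45% to 3.89% against 8.59% to 9.68% at the long-term stage. Its log2 differences were -1.38 and -1.32.

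**Figure D1:**
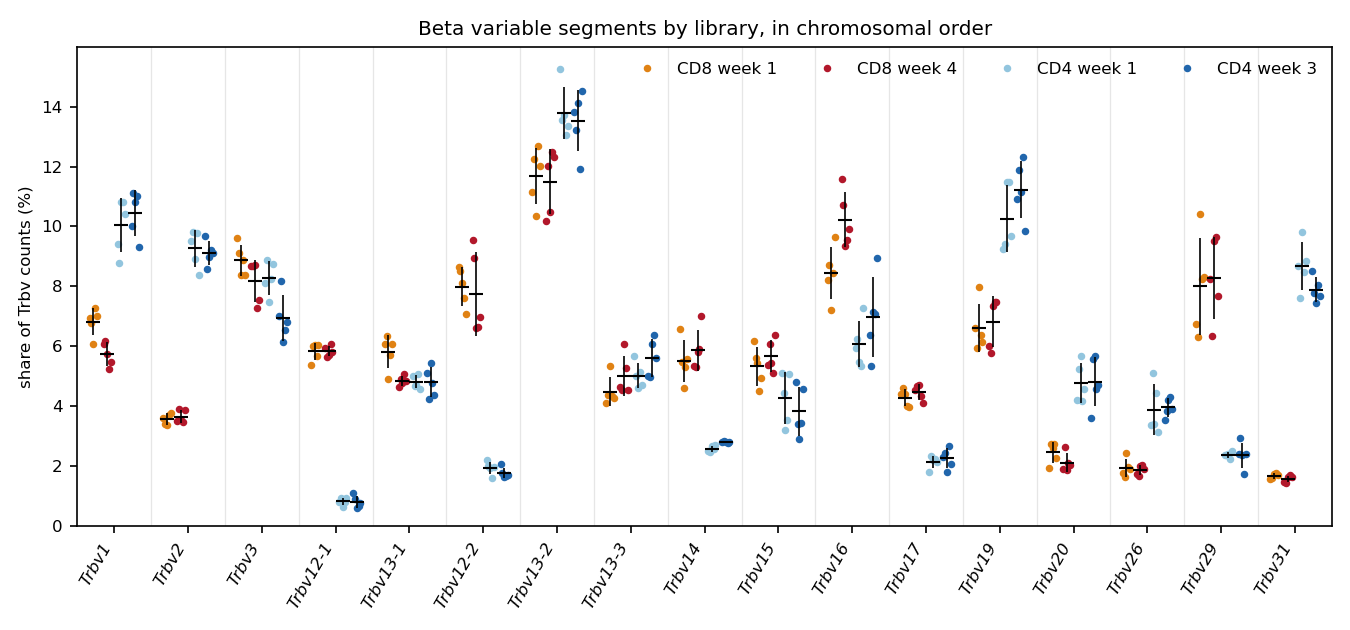
Share of Trbv counts (vertical axis, percent) for the Trbv segments with a mean share of at least 1% in some group, by library; bars show mean and SD over 5 libraries per group. Trbv12-1, Trbv12-2 and Trbv29 lie higher in the CD8 libraries, and Trbv31 and Trbv2 in the CD4 libraries.

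Other beta segments differed as well. Trbv29 held 6.30% to 10.4% in CD8 week 1 and 6.32% to 9.65% in CD8 week 4 but 2.24% to 2.51% and 1.73% to 2.91% in CD4 cells, a log2 difference of 1.75 and 1.81. Trbv14 (1.10 and 1.07), Trbv17 (1.00 and 0.99) and Trbv16 (0.48 and 0.55) were also higher in CD8 cells at week 1 and long term, in log2 units. Trbv20 (-0.96 and -1.20), Trbv26 (-1.0 and -1.08), Trbv1 (-0.56 and -0.87) and Trbv19 (-0.64 and -0.72) were lower. Trbv23, a rare segment at 0.223% and 0.244% in CD8 cells and 0.496% and 0.401% in CD4 cells, was lower at both stages. Trbv13-2 was lower in CD8 cells by 0.24 at both stages (adjusted p = 0.025 and 0.030, edgeR), but when segments were scaled by the library size instead of the locus total the long-term difference turned to 0.11 higher, and the difference no longer passed when 1 of several libraries was left out. At week 1 these were CD8 week 1 replicate 1 (adjusted p = 0.059) and CD4 week 1 replicate 1 (0.075), and at the long-term stage CD8 week 4 replicates 1 and 3 and CD4 week 3 replicates 1, 3 and 5 (0.061 to 0.093). Trbv13-3, at 4.48% and 5.01% in CD8 and 5.02% and 5.60% in CD4 cells, did not pass (adjusted p = 0.25 and 0.26, edgeR), nor did Trbv30.

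Beta segments that passed at one stage only were few. Trbv13-1 was higher in CD8 cells at week 1 (log2 0.27, adjusted p = 0.019), but missed the threshold without CD8 week 1 replicate 2 (log2 0.24, adjusted p = 0.054), and stood at 4.84% ± 0.168 against 4.79% ± 0.502 at the long-term stage. Trbv15 was higher at the long-term stage (log2 0.57, adjusted p = 0.0081) and had a log2 difference of 0.32 at week 1 (adjusted p = 0.11). Trbv3 was higher at the long-term stage (log2 0.24, adjusted p = 0.041) but not without CD8 week 4 replicate 1, 2 or 3 or CD4 week 3 replicate 1, 3, 4 or 5 (adjusted p = 0.065 to 0.11). These p-values are edgeR's.

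The alpha locus held many differences of smaller size. Per exon length, Trav12-2 (5.48% ± 0.43), Trav3-3 (5.38% ± 0.85) and Trav13-1 (5.36% ± 1.07) stood highest in CD8 week 1, and Trav4-4-dv10 (5.61% ± 0.63) and Trav14-2 (5.49% ± 0.33) in CD4 week 1, in each group within their spread of one another. Trav16, at 3.59% to 4.45% in CD8 week 1 and 3.17% to 4.54% in CD8 week 4 against 1.28% to 1.66% in CD4 week 1 and 0.712% to 1.75% in CD4 week 3, had a log2 difference of 1.51 (SE 0.19, adjusted p = 9.3e-06) and 1.75 (SE 0.19, adjusted p = 2.1e-06) in edgeR's test. The libraries of the 2 lineages did not overlap. Its copy Trav16d-dv11 was higher by 1.48 and 2.39 and its copy Trav16n by 1.62 and 1.77. The 3 copies summed to 8.24% ± 0.662 and 8.24% ± 0.564 of Trav counts in CD8 cells and 2.80% ± 0.129 and 2.29% ± 1.04 in CD4 cells. Reads that match several copies are missing from this sum too. Trav12-2 held 5.4% to 6.64% and 5.25% to 8.09% in CD8 cells against 2.56% to 3.27% and 2.19% to 3.77% in CD4 cells. Its log2 differences were 1.07 and 1.28. Replicates 1 and 2 again had the 2 highest values at CD8 week 4, and also at CD8 week 1.

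Trav4-4-dv10 was the called Trav segment with the smallest adjusted p among those lower in CD8 cells. Its shares were 1.3%, 1.97%, 1.46%, 1.88% and 2.65% at CD8 week 1 and 2.20%, 1.66%, 1.18%, 1.98% and 2.39% at CD8 week 4. In CD4 cells they were 4.95%, 4.70%, 4.64%, 5.85% and 5.80% at week 1 and 5.75%, 5.70%, 5.33%, 5.04% and 5.43% at week 3. No CD8 library came near a CD4 library, with log2 differences of -1.49 (SE 0.19, adjusted p = 1.4e-05, edgeR) and -1.52 (SE 0.19, adjusted p = 9.2e-06, edgeR). Trav14d-3-dv8 (-1.18 and -1.11) and Trav14-2 (-0.73 and -0.68) were also lower at both stages.

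**Figure D2:**
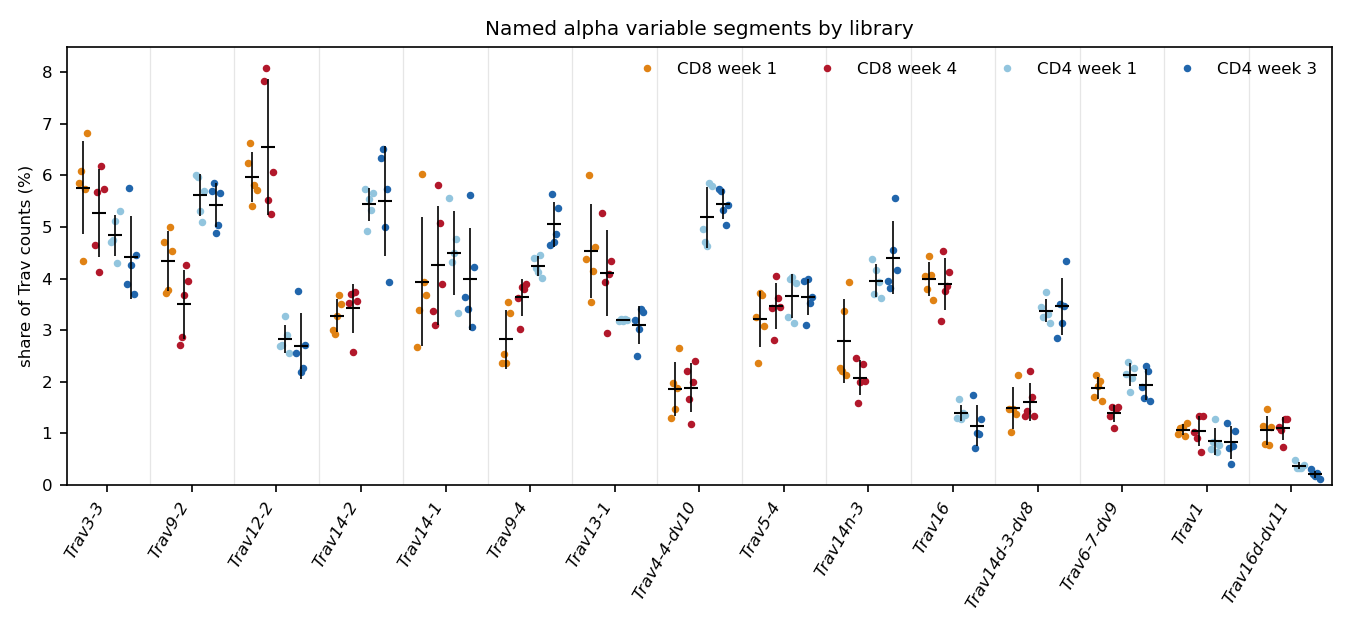
Share of Trav counts (vertical axis, percent) for the named Trav segments, by library; bars show mean and SD over 5 libraries per group. Trav12-2, Trav16 and Trav16d-dv11 lie higher in the CD8 libraries, and Trav4-4-dv10, Trav14-2 and Trav14d-3-dv8 in the CD4 libraries.

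The other named alpha segments were closer to the threshold or did not pass. Trav14n-3 was lower at week 1 (log2 -0.51, adjusted p = 0.034) and at the long-term stage (-1.08), where the copies Trav14-3 and Trav14d-3-dv8 were lower too; the week 1 difference missed the threshold without CD8 week 1 replicate 1, 2 or 4 or CD4 week 1 replicate 1, 3 or 4 (adjusted p = 0.056 to 0.096). Trav9-4 was lower by 0.58 and 0.47 and Trav9-2 by 0.37 and 0.63, the week 1 call of Trav9-2 (adjusted p = 0.046) being lost without CD8 week 1 replicate 1, 2, 3 or 5 or CD4 week 1 replicate 1, 2, 3 or 5 (adjusted p = 0.053 to 0.11). Trav13-1 was higher at week 1 (log2 0.50, adjusted p = 0.020), but not without CD8 week 1 replicate 2 (log2 0.38, adjusted p = 0.072), and Trav6-7-dv9 was lower at the long-term stage (log2 -0.48, adjusted p = 0.024), but not without CD8 week 4 replicate 1 or 3 or CD4 week 3 replicate 3 or 4 (adjusted p = 0.055 to 0.078). Trav3-3, Trav5-4 and Trav14-1 passed at neither stage. The p-values are edgeR's.

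Trav1, the alpha segment of the semi-invariant MAIT cell receptor, stood at 1.07% ± 0.107 and 1.05% ± 0.294 in CD8 cells and 0.84% ± 0.256 and 0.82% ± 0.313 in CD4 cells, and did not pass (adjusted p = 0.34 at week 1 and 0.36 long term, edgeR). Trav11, the alpha segment of the semi-invariant NKT cell receptor, had 1 count, in CD8 week 1 replicate 2, and no unique window of 50 bases, so its count says nothing about its use.

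Members of a family often differed in the same direction. The 5 Trav14 segments summed to 12.9% ± 2.10 and 12.7% ± 1.35 of Trav counts in CD8 cells against 19.9% ± 1.39 and 19.7% ± 0.962 in CD4 cells, with 4 of 5 members lower at each stage. The Trav9 family summed to 9.0% ± 1.18 and 8.95% ± 0.777 against 13.9% ± 0.574 and 14.1% ± 1.17, and the Trav4 family to 4.42% ± 0.522 and 4.83% ± 0.518 against 8.56% ± 0.636 and 9.47% ± 0.335. The Trav12 family was larger in CD8 cells, at 9.32% ± 0.745 and 9.89% ± 1.44 against 5.73% ± 0.519 and 5.54% ± 0.713. Of 14 Trav and Trbv families with at least 2 tested members, 9 at each stage had at least 2 called members. In 7 of these 9 all called members had the same direction. Some of these members are near-identical copies, as in Trav14 and Trav16. Members that were not called could go the other way, as in Trav12 (log2 -0.35 at week 1 and -0.19 long term). Trav6 had called members in both directions at both stages, Trbv13 at week 1 and Trav7 at the long-term stage.

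The lineage pattern at week 1 and that at the long-term stage rest on separate libraries. No label says whether the stages share animals or cultures, so their agreement may not be independent. Of the 46 segments called at either stage, 35 were called at both, all 35 in the same direction (17 higher and 18 lower in CD8 cells), which is 89.7% of the week 1 calls and 83.3% of the long-term calls. The 4 called at week 1 alone were Trav2, Trav9d-1, Trav13-1 and Trbv13-1, and the 7 called at the long-term stage alone were Trav6-7-dv9, Trav7d-3, Trav7d-4, Trav13-2, Trav21-dv12, Trbv3 and Trbv15. All 46 had the same sign at both stages. No difference between the stages was itself established: the interaction test passed for 0 segments (edgeR, 0 higher and 0 lower, against 0.248% and 0.406% of all genes), DESeq2 called 0, and 6 segments had an unadjusted p under 0.05, with the smallest adjusted p at 0.28 for Trbv1.

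**Figure D3:**
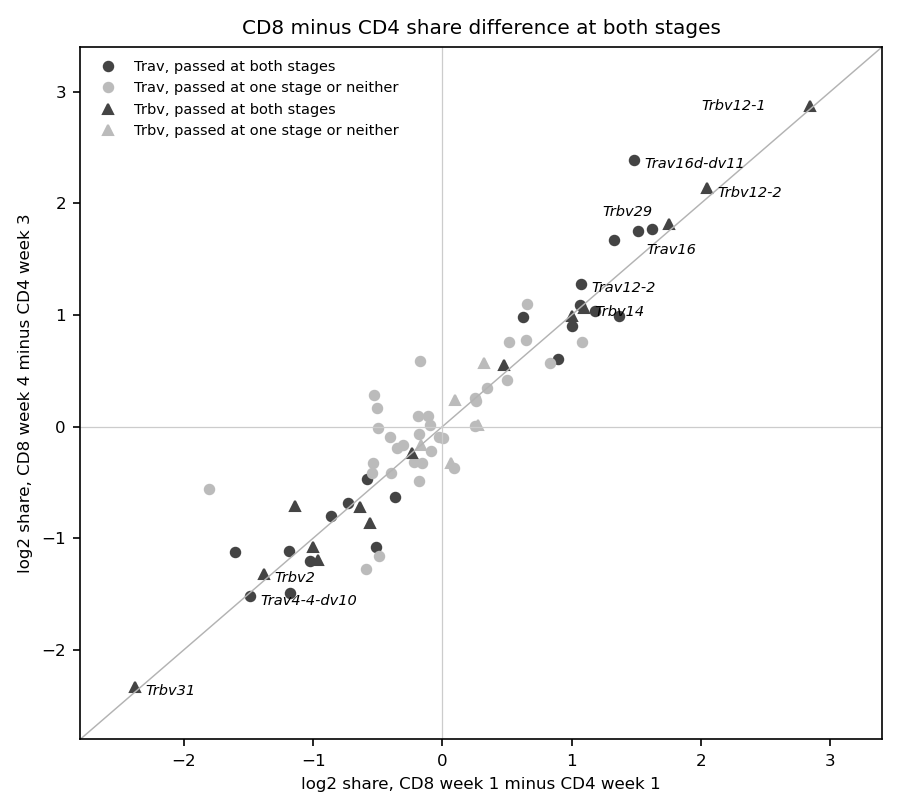
Log2 difference in share between CD8 and CD4 cells at week 1 (horizontal axis) and at the long-term stage (vertical axis) for the 74 tested segments; dark symbols passed at both stages and the diagonal marks equality. The 35 segments called at both stages lie at the lower left and upper right.

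The second question is what changed over culture. Few segments passed. In CD8 cells 0 segments rose and 3 fell between week 1 and week 4 (edgeR adjusted p under 0.05), against 17.1% of all genes higher and 16.4% lower, and 12 segments had an unadjusted p under 0.05. In CD4 cells 0 rose and 1 fell between week 1 and week 3, against 7.67% of all genes higher and 8.69% lower, and 3 segments had an unadjusted p under 0.05. The segments were tested as shares of their locus and the other genes on library size, so the measures are unlike. Scaled by library size as the other genes were, 0 of 74 segments rose and 8 fell in CD8 cells. In CD4 cells 0 of 74 rose and 12 fell on that scale. The comparisons over culture share their libraries with the lineage comparisons above. The median absolute log2 change was 0.091 for Trbv and 0.14 for Trav in CD8 cells and 0.078 and 0.14 in CD4 cells, with median SE of 0.11 for Trbv and 0.24 for Trav. Among segments of at least 1% mean share, the changes ran from -0.26 to 0.28 for Trbv and from -0.49 to 0.38 for Trav in CD8 cells, and from -0.26 to 0.20 and from -0.31 to 0.25 in CD4 cells.

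The CD8 calls were Trbv13-1, Trbv1 and Trav6-7-dv9, each a small decrease. Trbv13-1 held 6.06%, 6.32%, 4.89%, 5.70% and 6.07% at week 1 and 4.63%, 4.91%, 4.75%, 5.07% and 4.83% at week 4, a log2 change of -0.26 (SE 0.09, adjusted p = 0.026); week 1 replicate 3 lay within the week 4 range. Trbv1 held 6.94%, 6.76%, 6.08%, 7.27% and 7.0% at week 1 and 6.08%, 6.16%, 5.72%, 5.24% and 5.47% at week 4, a change of -0.25 (SE 0.08, adjusted p = 0.026), again with a small overlap. Trav6-7-dv9 held 1.70%, 2.13%, 1.91%, 2.01% and 1.62% at week 1 and 1.33%, 1.51%, 1.11%, 1.46% and 1.5% at week 4, with no overlap and a change of -0.44 (SE 0.16, adjusted p = 0.039). In CD4 cells Trbv3 fell from 8.10%, 8.86%, 7.47%, 8.23% and 8.73% to 7.0%, 8.18%, 6.15%, 6.52% and 6.79%, a change of -0.26 (SE 0.09, adjusted p = 0.049). Trbv16 was 8.45% ± 0.873 and 10.2% ± 0.922 in CD8 cells but did not pass (log2 0.28, adjusted p = 0.088). The p-values are edgeR's.

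All 4 calls over culture were lost when certain single libraries were left out. The log2 changes in those fits stayed negative. They were -0.25 to -0.23 for Trbv13-1, -0.24 to -0.22 for Trbv1, -0.46 to -0.37 for Trav6-7-dv9 and -0.29 to -0.22 for Trbv3. Trbv13-1 lost its call without CD8 week 1 replicate 1, 2 or 5 or CD8 week 4 replicate 1 (adjusted p = 0.057 to 0.070), Trbv1 without CD8 week 1 replicate 1, 4 or 5 or CD8 week 4 replicate 4 or 5 (0.053 to 0.073), and Trav6-7-dv9 without CD8 week 1 replicate 2 or 4 or CD8 week 4 replicate 1, 3 or 4 (0.059 to 0.097). Trbv3 lost its call without any one of 9 of the 10 CD4 libraries, all but CD4 week 3 replicate 2 (0.050 to 0.13). With neighbouring title numbers as a replicate block, Trbv13-1 (adjusted p = 0.046) and Trbv3 (0.040) passed, and Trbv1 (0.059) and Trav6-7-dv9 (0.095) did not. With the CD8 libraries of title range A alone, 0 segments were called over culture, and with those of range B alone 1, Trbv1. A rise in CD8 cells was called in 8 of the 24 alternatives, for 1 segment each: Trav9-4 in 5 of them, Trbv16 in 2 and Trav4-2 in 1. These p-values are edgeR's. Without CD8 week 4 replicates 1 and 2 together, 2 CD8 segments were called in the comparison over culture (Trbv1 lower and Trav9-4 higher), 36 between the lineages at the long-term stage and 0 for the interaction.

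**Figure D4:**
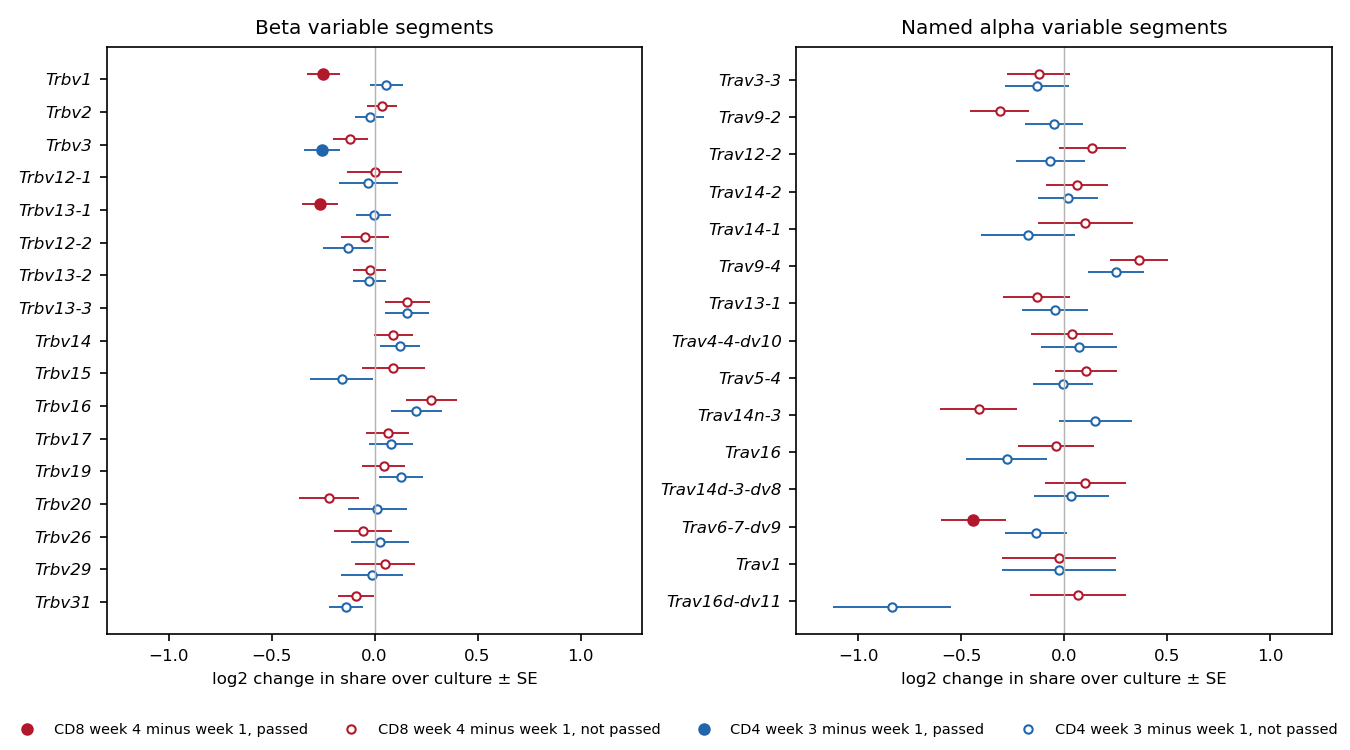
Log2 change in share over culture with its standard error (horizontal axis) for Trbv segments of at least 1% in some group (left) and the named Trav segments (right), in CD8 (week 4 minus week 1, red) and CD4 (week 3 minus week 1, blue) cells; filled points passed edgeR's test. Filled points mark Trbv1, Trbv13-1 and Trav6-7-dv9 in CD8 cells and Trbv3 in CD4 cells.

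Distances between libraries were larger between the lineages than over culture. Measured as the share that would have to be moved to turn one profile into the other, Trbv profiles were 5.97, 6.02, 5.75 and 6.13 percentage points apart on average within CD8 week 1, CD8 week 4, CD4 week 1 and CD4 week 3, and 27.1 (week 1) and 29.1 (long term) points apart between lineages. Over culture they were 5.58 (CD8) and 5.42 (CD4) points apart for libraries with neighbouring title numbers and 7.04 and 6.52 for the other pairs of libraries. Trav profiles were 8.05 to 13.5 points apart within groups and 23.4 and 25.3 between lineages. Over culture they were 11.5 (CD8) and 10.6 (CD4) points apart for neighbours and 13.4 and 10.0 for the other pairs. For Trbv the libraries of a group differed more than counting alone gives, with a chi-square per degree of freedom of 4.25 to 5.02 over the segments of at least 1%. For Trav, with fewer counts, it was 0.822 to 1.73. This ratio grows with the counts, so it does not rank the loci by spread. The median SD over mean of these shares, counting error included, was 9.02% to 10.5% for Trbv and 10.0% to 19.3% for Trav. These are descriptions without a test.

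The total of V segment counts and the evenness of use also differed between groups, again as descriptions. Scaled to TMM library sizes, Trav totals were 82.8 ± 15, 72.3 ± 3.93, 99.9 ± 15 and 80.7 ± 6.86 CPM (CD8 week 1, CD8 week 4, CD4 week 1, CD4 week 3; mean ± SD, n = 5), and Trbv totals 341 ± 47.2, 304 ± 17.9, 314 ± 24.5 and 239 ± 21.1 CPM. Fewer cells of a kind and less receptor RNA per cell cannot be told apart in bulk RNA. The effective number of segments, the exponential of the Shannon entropy of the shares, was 45.0 ± 1.31, 45.0 ± 1.15, 43.7 ± 0.556 and 42.4 ± 0.415 for Trav and 15.8 ± 0.104, 15.6 ± 0.142, 14.6 ± 0.272 and 14.6 ± 0.183 for Trbv.

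**Figure D5:**
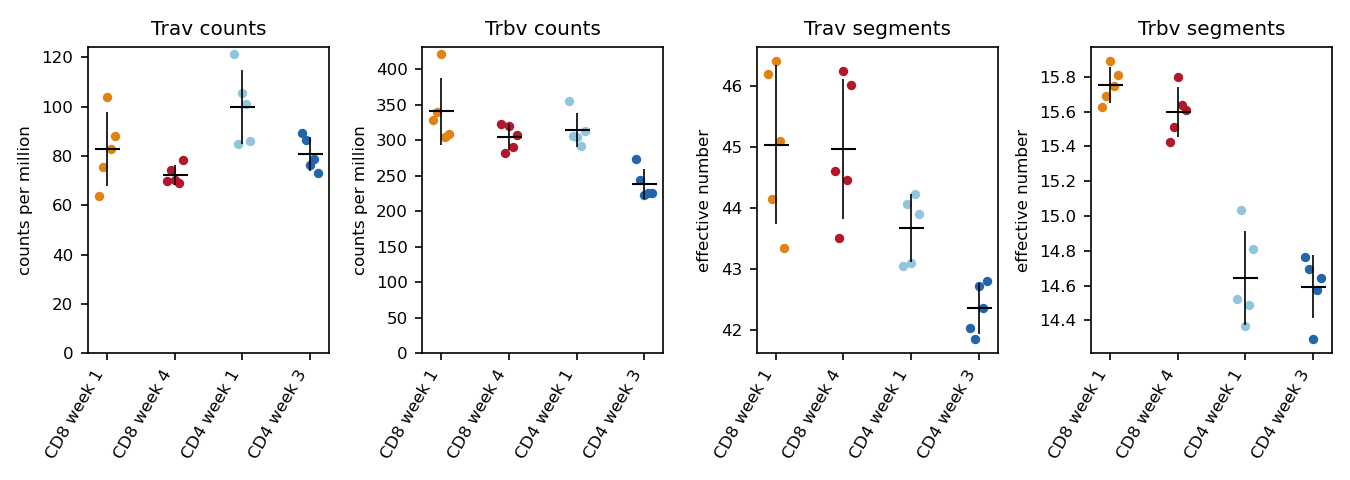
Trav and Trbv totals (CPM) and effective number of segments by group; points are libraries and bars mean and SD over 5 libraries. The Trbv total is lowest in CD4 week 3, and the Trbv effective number is lower in both CD4 groups than in both CD8 groups.

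The constant segments and the CD3 chains, which complete the receptor, were listed beside the V segments. Of 10 genes of the receptor complex and coreceptors, 0 rose and 2 fell over culture in CD8 cells (against 17.1% and 16.4% of all genes), and 1 rose and 3 fell in CD4 cells (against 7.67% and 8.69%). The coreceptor of the other lineage accounts for 1 of the CD8 falls, Cd4 from 0.273 to 0 CPM, and for the CD4 rise, Cd8a from 0.716 to 4.74 CPM (0.267 to 17.4 in single week 3 libraries). In CD8 cells 4 of the 10 were higher and 2 lower than in CD4 cells at week 1 (against 19.1% and 19%), and 6 were higher and 1 lower at the long-term stage (against 17.7% and 15%), the coreceptors among them. Trac, Trbc1 and Trbc2, the constant regions, fell in CD4 cells by 0.36, 0.44 and 0.43 (adjusted p = 0.023, 0.0011 and 0.00085, edgeR), and Trbc1 fell by 0.25 in CD8 cells (adjusted p = 0.014, edgeR). Cd3e and Cd3g, signalling chains of the receptor, were higher in CD8 cells at both stages, by 0.35 and 0.55 (Cd3e) and 0.43 and 0.74 (Cd3g).

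Genes listed as markers of other cells ran from 0 to levels above the Trav total. Rag1 and Rag2, the recombinase genes, were at 0 in every library and Ptcra, the pre-receptor chain, had 2 counts in all. Dntt, the terminal transferase that adds bases at the joints of receptor genes, averaged 11.4, 5.14, 1.99 and 1.89 CPM in CD8 week 1, CD8 week 4, CD4 week 1 and CD4 week 3, and was higher in CD8 cells at week 1 (log2 2.51, adjusted p = 0.0018, edgeR) with a log2 difference of 1.44 long term (adjusted p = 0.051, edgeR). The gamma delta list of 11 genes summed to 68.7 to 105 CPM in CD8 week 1, 74.6 to 140 in CD8 week 4, 10.0 to 40.2 in CD4 week 1 and 45.9 to 91.2 in CD4 week 3, with Trdc, the delta constant gene, at 4.34 to 9.90 CPM on average and not called in any of these comparisons. Trgv2, Tcrg-C2 and Tcrg-C4, gamma chain genes, were higher in CD8 cells at both stages, and Tcrg-C1 rose over culture in CD8 (log2 1.73) and CD4 cells (log2 1.84). The NK list of 5 genes was led by Eomes, a factor also made by memory CD8 T cells. The list summed to 184 to 360, 197 to 332, 0.342 to 22.2 and 0.874 to 9.80 CPM. Ncr1, a receptor of NK cells, stood at 3.60 CPM or less and Klra8 at 0.459 CPM or less. Klrb1c averaged 11.5 and 22.9 CPM and Klre1 15.9 and 12.4 CPM in CD8 week 1 and CD8 week 4. Both were higher in CD8 cells at both stages (log2 7.39 and 5.66 for Klrb1c, 7.01 and 5.99 for Klre1). Among B cell genes, Ms4a1 stood at 0.532 CPM or less. Ighm averaged 271, 157, 414 and 387 CPM in CD8 week 1, CD8 week 4, CD4 week 1 and CD4 week 3. It was lower in CD8 cells at the long-term stage (adjusted p = 0.0035, edgeR). Its week 1 difference did not pass (adjusted p = 0.12, edgeR). Cd79b, a B cell receptor chain, was instead higher in CD8 cells at both stages (log2 3.75 and 3.02). Of the 4 myeloid genes, Lyz2 was at 0 in every library. The list summed to 9.16 to 22.9, 4.54 to 22.7, 1.46 to 2.40 and 1.54 to 3.69 CPM in the 4 groups. Most of this was Cd68, which averaged 12.3, 11.1, 1.73 and 2.51 CPM. It was higher in CD8 cells at both stages (log2 2.82 and 2.15). The 5 NKT and MAIT genes summed to 1.24 to 2.40 CPM over all groups. Foxp3, the regulatory T cell factor, ranged from 6.25 to 103 CPM in CD4 week 1 and from 0.394 to 45.4 in CD4 week 3, and was at 2.32 CPM or less in CD8 cells. Ikzf2, a factor of regulatory T cells, was instead higher in CD8 cells (log2 2.49 and 0.85). Il2ra, the IL-2 receptor alpha chain, which activated T cells also carry, averaged 480, 191, 684 and 560 CPM and was lower in CD8 cells at the long-term stage (log2 -1.55). The part of these cells in the segment shares was not tested.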

How the data were processed

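PolyA RNA of 20 libraries, 4 groups of 5, was sequenced. Reads were aligned with STAR to mm10, per the submitters' processing notes, and the deposited counts are raw reads per gene from featureCounts 1.6.3 (exons, reverse strand, GENCODE M12, GRCm38), per the file headers, which set nothing for reads with several matches or on overlapping genes. The deposited exon length per gene served for length-corrected shares. Read length is not given in the sources used here. Genes were named with GENCODE M21, whose exon spans equal those of all 93 segments; 49412 of 49671 genes matched.

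The members and lists were chosen with earlier results of these data known. Segments were tested in one edgeR 4.0.16 quasi-likelihood fit (R 4.3.3, filterByExpr, all 4 groups) of all 13290 genes, with the locus total as offset for segments and the TMM library size for other genes. Benjamini-Hochberg adjusted p under 0.05 was called, and SE was taken as the log2 change over the root of the F statistic. The script was checked on simulated data. Named segments were every Trbv of at least 1% mean share in a group, the 10 largest Trav, up to 4 called per comparison and locus, Trav1, Trav11, Trbv19 and Trbv13-1. Others named (rare segments, copies of named ones, segments called at one stage or in an alternative) were chosen after their values were seen.

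Alternatives were other scalings, filters, DESeq2 1.42.0, summed copies, pseudogene segments, title ranges, a replicate block, and each library left out. No 2 libraries of a group were near-duplicates.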

Additional observations from a re-analysis of the deposited data

Results flagged for a closer look

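Of 148 groups of 5 libraries tested with Dixon's criterion (chance gives about 1 in 20), 4 held a library far from the others. The Trbv13-3 share in CD8 week 1 replicate 3 was 5.3261% (95% Wilson interval 4.83% to 5.87%), with the others between 4.09% and 4.38%. The Trbv20 share in CD8 week 4 replicate 2 was 2.6326% (2.22% to 3.11%), with the others between 1.88% and 2.08%. The Trav14-2 share in CD8 week 4 replicate 3 was 2.5792% (1.86% to 3.57%), with the others between 3.53% and 3.74%. The Trav11 share in CD8 week 1 replicate 2 was 0.078989% (0.0139% to 0.446%), from 1 count, with the others at 0.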

How the results depend on the processing

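Between CD8 and CD4 cells, 33 of the 49 calls of named segments held under every alternative run for them and 16 were lost in at least one. The 39 segments called at week 1 became 16 with a filter of at least 5 CPM, under which only 20 of the 74 segments were tested, and the 42 at the long-term stage became 18 of those 20 with that filter and 25 with the CD8 libraries of the second title range alone, a choice made after seeing the data. Over culture in CD8 cells the 3 calls became 8 with TMM scaling, 0 without a filter, 0 in title range A alone, 1 in title range B alone and 1 with a replicate block. The 1 call in CD4 cells became 12 with TMM scaling, 0 with median-of-ratios scaling, 0 without a filter and 0 with the compared groups alone. Leaving out each library gave 1 to 5 calls in CD8 culture (1 without CD8 week 1 replicate 1 or 2 or CD8 week 4 replicate 1, 5 without CD8 week 1 replicate 3), 0 to 1 in CD4 culture, 35 to 40 and 39 to 45 between lineages, and 0 for the interaction. Under TMM scaling the long-term Trbv13-2 difference turned to 0.11 (adjusted p = 0.40, edgeR). The effective number of Trav segments was 33.3, 33.5, 31.9 and 31.5 with copies summed (CD8 week 1, CD8 week 4, CD4 week 1, CD4 week 3), 45.1 (CD4 week 1) and 43.8 (CD4 week 3) with pseudogene segments, and 41.8 in CD4 week 3 thinned to the smallest library. For Trbv it was 15.9 (CD8 week 1), 15.8 (CD8 week 4) and 14.9 (CD4 week 3) with pseudogene segments and 15.6, 15.4 and 14.9 per exon length. The Trav13-1 share in CD4 week 1 was 3.158% with pseudogene segments. Fewer genes tested or fewer libraries explain part of the filter and title range changes by construction, and the cause of the others was not tested. Neighbouring title numbers, 1 week 1 and 1 long-term library each, were not treated as pairs in the main fit. No label ties them, and pairing was not excluded. Trbv deviations from group means correlated over 0.1 in 9 of 10 pairs, Trav in 5 and other genes in 7 (in CD8 cells alone 5, 4 and 3 of 5 pairs). The best match was the neighbour for 7 of 10 week 1 and 6 of 10 long-term libraries at Trbv. At Trav it was the neighbour for 4 and 4, and over other genes for 5 and 4. The replicate block also gave 1 call in CD4 culture and 0 for the interaction. The fit of the compared groups alone was not run for the interaction. With 1171 to 2927 Trav counts a library, small changes of rare Trav segments were not detectable at this depth.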
